A study of Mus musculus with 2 samples.

Results

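Dividing bone marrow progenitors that carried little neutrophil granule mRNA were compared between mouse models of chronic myeloid leukemia (CML) with and without the microRNA miR-142, labelled WT and KO. They were selected on measured values: a cell needed at least 8000 UMIs (unique molecular identifiers, 1 per captured mRNA molecule) with less than 10% of them mitochondrial, fewer than 10 UMIs per 10000 of Elane, Mpo, Prtn3 and Ctsg together, at least 1 UMI of Mki67, and a UMI of at least 3 of Nusap1, Aspm, Cenpf, Psrc1 and Pimreg. The rule was met by 818 of 10821 cells, of which 645 were among 5363 cells of the WT library and 173 among 5458 of the KO library. They are called G2/M granule-low cells here. The 6 proliferation genes and 4 granule genes of the rule are therefore given as a description only.

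Both libraries were made from Lin-Sca-1+c-Kit+ (LSK) cells, the lineage-negative marrow fraction in which stem cells and early progenitors are found, of mice 8 to 10 weeks old. Both strains were B6 mice that expressed BCR-ABL, the fusion kinase of CML, under the SCL promoter once tetracycline was withdrawn, a promoter that drives the transgene in stem and progenitor cells. The miR-142 WT CML mice were wild type for the microRNA (miR-142+/+), and the miR-142 KO CML mice carried its deletion on both alleles (miR-142-/-). There was 1 library per genotype and the number of mice behind each was not stated, so no test was run: each value describes these 2 libraries, differences between mice cannot be told apart from the genotype, and the 95% intervals (Clopper-Pearson for shares, exact conditional binomial for ratios) cover counting error only.

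In G2 and M phase a cell holds duplicated chromosomes, condenses them, attaches them to a spindle through kinetochores and separates them under the control of CDK1, Aurora and Polo-like kinases and the anaphase-promoting complex. Many of these genes are transcribed together late in the cycle, through the DREAM, B-MYB and FOXM1 complexes that act at a cell cycle homology region (CHR) and at CCAAT boxes. LSK cells that divide in this way lie between quiescent stem cells and committed progenitors, and those used here had not taken up the azurophil granule program of neutrophil precursors.

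The sequences that bear on the comparison are those of the deleted microRNA and of the late cell cycle promoters. Mir142 lies on chromosome 11 and gives 2 mature strands (RefSeq, GRCm38.p6), shown with the seed, bases 2 to 8, in capitals.
mmu-miR-142a-5p: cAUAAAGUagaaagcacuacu
mmu-miR-142a-3p: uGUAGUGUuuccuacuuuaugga
The 5p strand lies at chr11:87756867-87756887 and the 3p strand at chr11:87756903-87756925, both on the plus strand.

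Promoters of the proliferation genes used by the rule are shown for the part that holds a CHR, searched as TTTGAA or TTCGAA on both strands in the 250 bases before and 50 bases after each gene's start. Promoters of 5 of the 6 genes were in the table, and 4 of them held a CHR, given here in capitals.
Aspm: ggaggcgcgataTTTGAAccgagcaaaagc
Cenpf: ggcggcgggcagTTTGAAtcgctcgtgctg
Mki67: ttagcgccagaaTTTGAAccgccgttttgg
Psrc1: gagcctaagaaaTTCGAAcgaagctccgcc
The windows lie at chr1:139454767-139454796 (plus strand), chr1:189688067-189688096 (minus strand), chr7:135716478-135716507 (minus strand) and chr3:108383796-108383825 (plus strand) of GRCm38.p6. Mki67 held a further TTTGAA nearer to its start. For shares, a gene was counted where any of its promoters of this length held a match. A CHR was found in 55.7% of the 140 mitosis genes described below that had a promoter. It was found in 17.6% of 34 replication genes and in 21.7% of all 27025 genes. For CCAAT, also searched on both strands, these shares were 64.3%, 61.8% and 41.1%. Among the 6428 genes that had a promoter and reached the level set for gene lists below, 17.4% held a CHR and 43.5% a CCAAT. Such a match is a description of the letters and does not show that a factor bound there.

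The G2/M granule-low cells held 15743943 UMIs in WT and 3601971 in KO, with medians of 22542 and 20313 UMIs per cell. Their median mitochondrial share was 2.89% in WT and 2.18% in KO. No barcode of these cells was shared between the libraries, against 4 among all cells. Doublet scoring placed 43 members among the top scorers in WT and 3 in KO. Levels are given as CPM, the UMIs of a gene per 1000000 UMIs, both summed over the cells of the class. UMIs of the 3′ kit are counted per molecule and not divided by transcript length. Barcodes with fewer than 100 UMIs, which hold free RNA rather than cells, were summed in the same way, and this free RNA level is given where it bears on a gene.

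The labels were checked on the deleted locus. Mir142hg, the host transcript of the microRNA (ENSMUSG00000084796, chr11:87755577-87757270, GRCm38), had 153 UMIs in WT (9.72 CPM) and none in KO, where the limit that a count of 0 allows, 3 UMIs, is 0.833 CPM. It was therefore at least 11.7-fold lower in KO. Tspoap1, the next gene downstream at a distance of 3270 bases, had 11 UMIs in WT and 851 in KO (0.699 and 236 CPM), and was higher in KO at a log2 ratio of 8.21 (7.55 to 9.41). Of the sort markers, Kit was at 123 CPM (WT) and 85.8 CPM (KO), Ly6a, which encodes Sca-1, at 103 and 159.9 CPM, and the progenitor antigen Cd34 at 277 and 219.6 CPM. All 3 were thus present in both libraries.

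The class was a smaller share of the KO library. It made up 12.03% of all cells in WT (11.2 to 12.9) but 3.17% in KO (2.72 to 3.67). The shares differed by -8.86 percentage points (-9.86 to -7.86). All G2/M cells, granule-low or not, were 37.1% of WT and 33.3% of KO cells, whereas granule-low cells, dividing or not, were 42.1% and 15.6%. Among granule-low cells the G2/M share was 28.6% in WT and 20.4% in KO, a difference of -8.21 points (-11.5 to -4.80), and among granule-high cells it was 43.4% and 35.7%. Of the G2/M cells, 32.4% in WT and 9.51% in KO were granule-low.

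**Figure D1:**
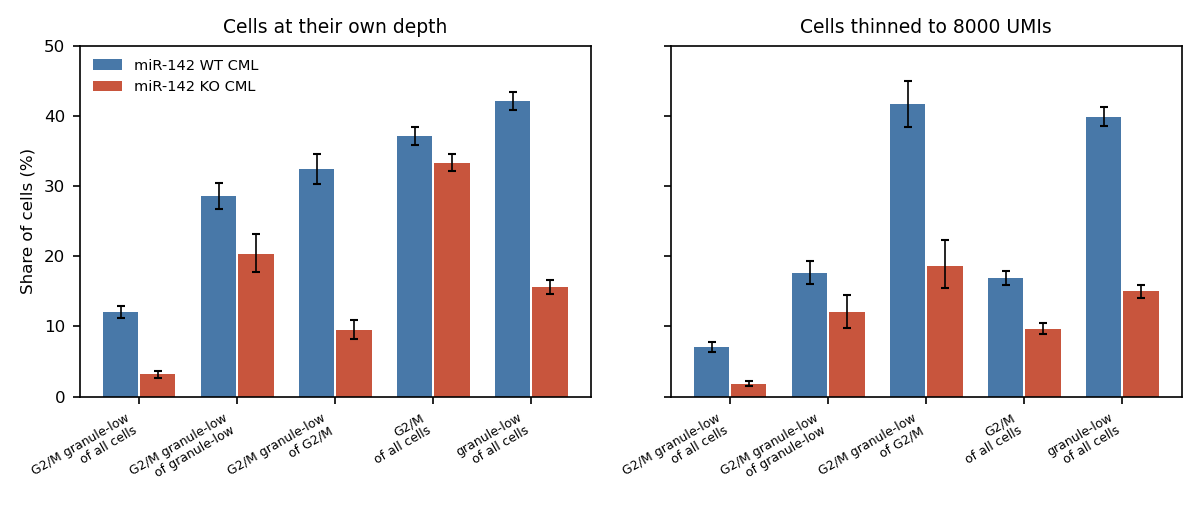
Share of cells (%) in miR-142 WT CML (blue) and miR-142 KO CML (red), with 95% binomial intervals, for 5 classes and denominators, with cells at their own depth on the left and thinned to 8000 UMIs on the right. The KO bar is the lower of the pair in every case, with the smallest gap, 37.1% against 33.3%, for G2/M cells among all cells at their own depth.

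Detection of a marker depends on depth, so every cell was also thinned at random to 8000 UMIs before the rule was applied. The class was then 7.01% of WT and 1.80% of KO cells, and 17.6% and 11.98% of the granule-low cells. All G2/M cells, granule-low or not, were then 16.8% of WT and 9.62% of KO cells. Among granule-high cells the G2/M share was 16.3% and 9.20%. The gap in the G2/M share of all cells was thus wider after thinning than at own depth. The limit on granule mRNA is set on genes whose levels differed between the libraries, free RNA included: the 4 granule genes summed to 5849 CPM in WT free RNA and to 13471 CPM in KO free RNA. The part of this background in the smaller share of the KO library was not tested. With limits of 5 and 20 granule UMIs per 10000, the difference was -4.19 and -13.4 points.

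The class is a range and not a separate type. Just inside the granule limit, at 9 to under 10 per 10000, were 51 WT and 18 KO cells, and just outside, at 10 to under 11, were 49 and 11 cells that met the rest of the rule. All 5 of the graded markers were found in 285 WT and 65 KO cells, 4 in 216 and 56, and 3 in 144 and 52, while 131 and 29 granule-low cells with Mki67 had exactly 2 and stayed out. Few cells were near the depth limit: 8 WT and 2 KO cells had 8000 to under 9000 UMIs.

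Of the genes the rule used, Mki67, a coat protein of mitotic chromosomes, stood at 435 CPM (WT) and 344 CPM (KO). Cenpf, a kinetochore protein, was at 313 and 336 CPM, and Nusap1, which binds spindle microtubules, at 297 and 268 CPM. Pimreg was at 105 and 95.2 CPM, Aspm, which acts at spindle poles, at 87.2 and 83.3 CPM, and Psrc1 at 60.6 and 48.0 CPM. The 2 libraries thus held the 6 genes in the same order, with log2 ratios (KO over WT) from -0.34 for Mki67 to 0.10 for Cenpf. The granule genes were low by construction: the protease gene Prtn3 at 376 and 310.4 CPM, Ctsg, which encodes cathepsin G, at 47.6 and 108 CPM, myeloperoxidase (Mpo) at 56.1 and 26.7 CPM, and neutrophil elastase (Elane) at 9.85 and 20.3 CPM. Mpo was lower in KO although its free RNA level was higher there, at 1371 against 999 CPM.

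The summed mitosis genes lay close together in the dividing granule-low cells of both genotypes. The rule required Mki67 and other mitosis genes in every cell, so the class was matched on part of this program in advance. The part of the selection in this likeness was not tested, and the values are a description. In the groups of mitosis genes, 164 of 166 had a mean of 10 CPM or more, and their sum was 18620 CPM (WT) and 18309 CPM (KO). Within a list, a gene was called higher or lower where one library was at least 25% above the other. By this limit 5 of the 164 were higher in KO and 22 lower, while over all 7978 genes at this level 9.43% were higher and 15.6% were lower. These shares of all genes are the background for every count of called genes in the lists below. The median log2 ratio of the mitosis genes was -0.08, beside -0.04 for all genes. In single cells of the class the mitosis genes summed to a median of 192 UMIs per 10000 in WT and 188 in KO. The middle of both distributions was close together, and WT reached further upward (90th percentile 255 and 232). Outside the class their median log2 ratio was -0.21 over 78 genes in granule-low cells with no UMI of the rule's proliferation genes. It was -0.18 over 160 genes in G2/M granule-high cells, which met the same proliferation rule. The difference between classes was not tested.

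**Figure D2:**
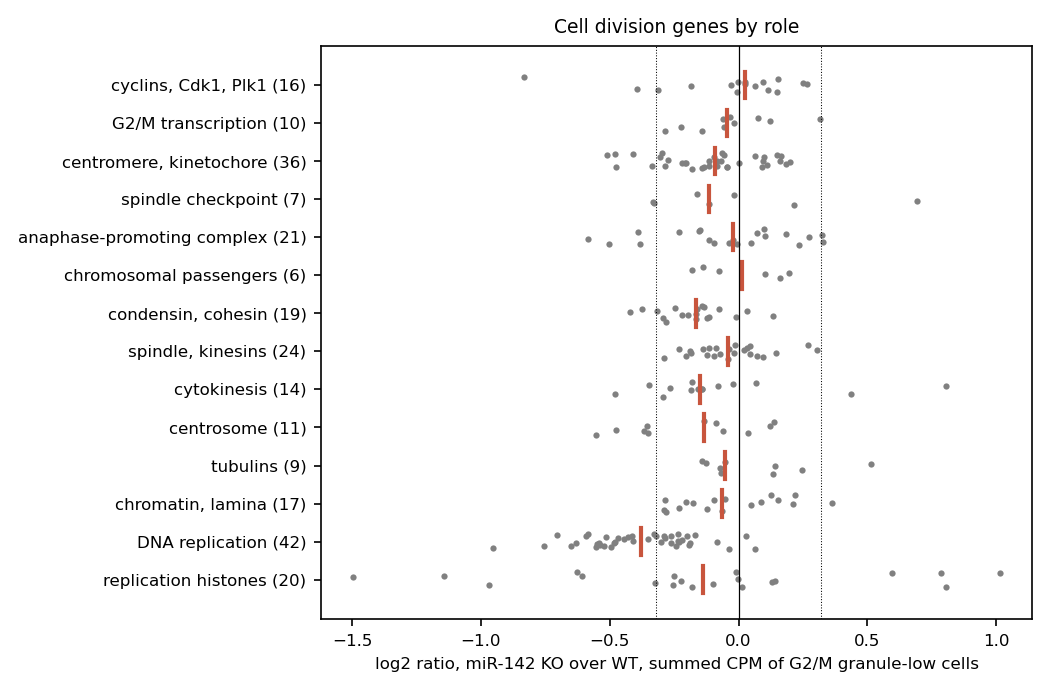
Log2 ratio (KO over WT, x axis) of each gene with a mean of 10 CPM in G2/M granule-low cells, by role, with the number of genes in brackets, the median as a red bar and dotted lines where one library was 25% above the other. The mitotic groups have medians from -0.16 to 0.03, whereas the DNA replication genes center on -0.38.

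Cyclins and CDK1 with its regulators had 16 measured members with a median log2 ratio of 0.03. None was called higher in KO and 2 were called lower, where 9.43% and 15.6% of all genes were. Cks2, a CDK subunit, was at 743 CPM (WT) and 805 CPM (KO) (log2 ratio 0.11, interval 0.06 to 0.17), and its relative Cks1b at 425 and 512 CPM (0.27, 0.19 to 0.34). Both kinases that hold CDK1 inactive until mitosis were lower: Wee1 at 44.1 and 24.7 CPM (-0.83, -1.17 to -0.52) and Pkmyt1 at 32.9 and 24.99 CPM (-0.40, -0.74 to -0.07). For comparison, Cdk1 itself was at 295 and 300.1 CPM, Ccnb1 at 159.9 and 177 CPM, Ccnb2 at 251 and 279 CPM and Ccna2 at 154 and 151 CPM, genes named after their values were seen.

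The 10 measured genes of the complexes that transcribe the G2/M program had log2 ratios between -0.28 and 0.32, and none was called in either direction. The histone-binding subunit Rbbp4 was at 245 CPM (WT) and 235 CPM (KO), E2f4, a repressor in the DREAM complex, at 69.9 and 69.1 CPM, and Foxm1 at 27.2 and 26.7 CPM. Lin37 was at 34.3 and 42.8 CPM, and Nfya, a subunit of the factor that binds CCAAT, at 48.7 and 40.0 CPM.

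Of 36 centromere and kinetochore genes (median -0.09), 5 were called lower in KO and none higher, where 15.6% and 9.43% of all genes were. The centromeric histone Cenpa was at 427 CPM (WT) and 491 CPM (KO), and the outer kinetochore subunit Spc24 at 243 and 229 CPM. Ndc80, which attaches the kinetochore to microtubules, was at 89.4 and 62.7 CPM (-0.51, -0.72 to -0.31), and Zw10 at 21.7 and 15.5 CPM (-0.48, -0.92 to -0.07). Among 7 spindle assembly checkpoint genes the directions were mixed. Bub3 was at 285 CPM (WT) and 331 CPM (KO), Mad2l1 at 108 and 107 CPM and the kinase Bub1 at 57.6 and 45.8 CPM. Mad2l1bp, whose product p31comet turns the checkpoint off, was at 20.8 and 33.6 CPM (0.69, 0.38 to 0.999).

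The anaphase-promoting complex, the ubiquitin ligase that starts anaphase, had 21 measured members with its activators, inhibitor and substrates (median -0.02). Of the 21, 2 were higher and 4 lower in KO, where 9.43% and 15.6% of all genes were. The conjugating enzymes of the complex, Ube2c and Ube2s, were at 615 and 537 CPM in WT and at 742 and 534 CPM in KO. The core subunits Anapc2 (32.1 and 21.4 CPM; -0.58, -0.95 to -0.24) and Anapc7 (38.2 and 26.9 CPM; -0.50, -0.83 to -0.19) were lower. The 6 genes of the chromosomal passenger complex and the shugoshins, which correct attachment errors, were all within the limit. Birc5 (survivin) was at 457 CPM (WT) and 524 CPM (KO), Cdca8 at 335 and 305 CPM and Incenp at 147 and 129 CPM.

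Condensin, cohesin and related chromosome structure genes had 2 of 19 members above 0 (median -0.16), and 2 of the 19 were called lower, where 15.6% of all genes were. Top2a, the topoisomerase that untangles sister chromatids, was at 718 CPM (WT) and 586 CPM (KO) (-0.29, -0.36 to -0.23), and the condensin subunit Smc4 at 410.3 and 358 CPM. Ncapg2 was at 46.6 and 34.7 CPM (-0.42, -0.71 to -0.15), and Cdca5, which holds cohesin on chromatin, at 52.9 and 40.8 CPM (-0.37, -0.64 to -0.12). None of 24 spindle assembly and kinesin genes was called. Ran, the GTPase that guides spindle assembly, was at 1235 and 1296 CPM, Tpx2 at 224 and 203 CPM, the kinesin Kifc1 at 35.8 and 44.1 CPM and Haus8 at 32.9 and 26.9 CPM.

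Fam83d, which takes part in spindle positioning, was at 22.7 CPM (WT) and 39.7 CPM (KO) (0.81, 0.52 to 1.09), and Cep55, which marks the midbody where daughter cells separate, was at 60.8 and 43.6 CPM (-0.48, -0.73 to -0.23). Prc1, the crosslinker of the central spindle, was at 252 and 228 CPM and Racgap1 at 102 and 107 CPM. Over the 14 genes the median was -0.15, with 2 higher and 2 lower. Of 11 centriole and centrosome genes (median -0.14), 5 were lower in KO and none higher, where 15.6% and 9.43% of all genes were. Among the lower ones were Cdk5rap2 (30.2 and 20.5 CPM; -0.56, -0.93 to -0.20) and Cntrob (18.2 and 13.0 CPM; -0.47, -0.95 to -0.03), while Mzt1 was at 79.6 and 76.3 CPM and Plk4, the kinase that starts centriole duplication, at 63.0 and 64.7 CPM.

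Tubulins, their regulator and chromatin proteins were mostly near their WT level. The tubulin regulator stathmin (Stmn1) was at 2535 CPM (WT) and 2410.3 CPM (KO), and Tubb5 at 2255 and 2044 CPM. The tubulin genes Tuba1c and Tubb2a were at 122 and 174 CPM and at 17.8 and 21.1 CPM. Of the 9 measured genes of this list, Stmn1 among them, Tuba1c was called higher (0.51, 0.38 to 0.64) and none lower. Tuba8, a tubulin gene that was not listed and is named after its value was seen, was at 27.1 and 55.8 CPM (1.04). Tubulin genes are close copies of each other, and reads that fit several of them may have been lost or misplaced. H2afz, a histone variant made outside S phase too, was at 3026 and 3886 CPM (0.36, 0.33 to 0.39), Hmgb2 at 3323 and 2889 CPM and Cbx1 at 263 and 215 CPM.

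DNA replication genes were lower in the KO cells. Of 42 measured replication and S phase genes, 23 were called lower in KO and none higher, where 15.6% and 9.43% of all genes were. Their median log2 ratio was -0.38 beside -0.04 for all genes, and 2 lay above 0. Per cell, they summed to a median of 39.2 UMIs per 10000 in WT and 28.6 in KO. The difference lay in the upper part of the distribution: the 10th percentiles were 14.9 and 14.5, the upper quartiles 62.5 and 45.3. The lower ends of both distributions were thus alike.

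The licensing factor Cdt1 had 551 UMIs in WT and 65 in KO (log2 ratio of CPM -0.95, -1.35 to -0.58), and Dtl, which guides its destruction, at 54.9 and 32.5 CPM (-0.75, -1.05 to -0.48). Pclaf, a partner of the sliding clamp, was at 308 and 221 CPM (-0.48, -0.59 to -0.37). The dUTPase gene Dut, the most abundant of the list, was at 446 and 388 CPM (-0.20, -0.28 to -0.12). Among genes picked after their values were seen, the helicase subunits Mcm5 (99.4 and 63.3 CPM) and Mcm6 (152 and 101 CPM) and the clamp Pcna (228 and 194 CPM) were lower as well. The list was lower in KO outside the class too, with a median of -0.72 in granule-low cells that had no UMI of the 6 proliferation markers and of -0.29 in G2/M granule-high cells. The difference between classes was not tested.

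Clustered histone genes, which are transcribed in S phase, were mixed (median of 20 genes -0.14, 4 higher and 6 lower). Hist1h2ap was at 3439 CPM (WT) and 1220.2 CPM (KO) (-1.49, -1.54 to -1.45), Hist1h2ae at 1243 and 805 CPM (-0.63, -0.68 to -0.57) and Hist1h3b at 28.3 and 12.8 CPM (-1.14, -1.62 to -0.71). Hist1h2bc was the other way, at 33.9 and 68.6 CPM (1.01, 0.79 to 1.24). Most such mRNAs lack a poly(A) tail and the genes are near copies of one another, so their levels in a poly(A)-primed library are uncertain. DNA damage response genes had 13 measured members, 1 higher and 3 lower, with Brca1 at 27.7 and 16.4 CPM, Chek1 at 21.7 and 14.99 CPM, Trp53 at 217 and 185 CPM and Btg2 at 140.1 and 157 CPM.

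G1 regulators did not move together: of 14 genes, 3 were higher and 3 lower in KO. The G1 kinases Cdk6 and Cdk4, at 566 and 428 CPM in WT and 560.0 and 420.0 CPM in KO, were within the limit. Cyclin D1 (Ccnd1) was at 12.6 and 20.5 CPM (0.70, 0.30 to 1.09), and the CDK inhibitor Cdkn1a, which encodes p21, at 19.9 and 31.6 CPM (0.66, 0.34 to 0.98).

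**Figure D3:**
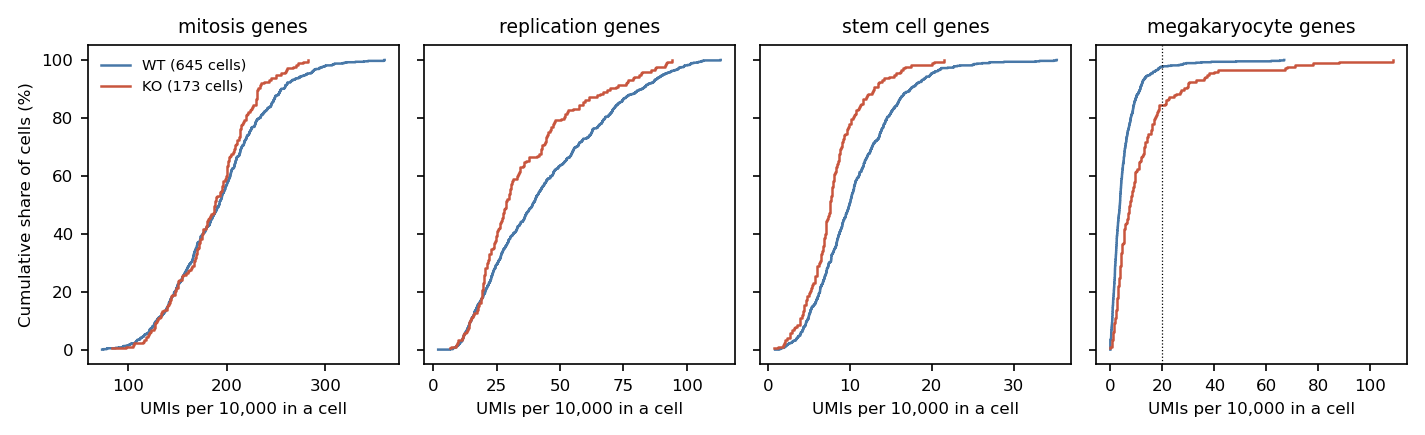
Cumulative share of G2/M granule-low cells (%, y axis) against the summed UMIs per 10000 of a gene list in a cell (x axis), for 645 WT cells (blue) and 173 KO cells (red). The curves for mitosis genes nearly coincide, in cells that the rule selected on mitosis genes. Those for replication and stem cell genes are shifted left in KO. That for megakaryocyte genes is shifted right, with 15.6% of KO and 2.33% of WT cells at or past the dotted line at 20.

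Of 11 measured stem cell genes, 5 were called lower in the dividing KO cells and 1 higher (median -0.29). The median was 0.63, and the log2 ratio of Hlf -0.17, in the 16 WT and 7 KO cells that were left without cells of 5 per 10000 of other lineages. Per cell, the sum had a median of 9.91 UMIs per 10000 in WT and 7.56 in KO. Hlf, a transcription factor of long-term stem cells, was at 137 CPM (WT) and 48.3 CPM (KO) (-1.51, -1.74 to -1.28), and its free RNA level was lower as well, at 30.1 and 8.21 CPM. Mllt3, another stem cell regulator, was at 27.3 and 12.5 CPM (-1.12, -1.61 to -0.68). Meis1 was at 161 and 132 CPM and Angpt1 at 158 and 146 CPM. Msi2, the RNA-binding protein the study followed in connection with blast crisis, was at 187 and 104 CPM (-0.84, -1.001 to -0.69). The lower value in KO was found in the marker-negative granule-low cells and in the G2/M granule-high cells as well (-0.91 in each). This is the opposite direction to that of the study, which reported more Msi2 mRNA and protein in LSK cells of the knockout CML mice. Its measurements were made on LSK cells and not on this class, and the reason for the difference was not tested.

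Of 8 measured lymphoid priming genes, 6 were lower and 1 higher in KO (median -0.54). Dntt, the terminal transferase of lymphoid progenitors, was at 130.3 CPM (WT) and 45.5 CPM (KO) (-1.51, -1.75 to -1.29), and it was concentrated in few cells: 79.7% of its WT UMIs and 71.3% of its KO UMIs lay in the top 5% of cells. The cytokine receptor Flt3 was at 48.8 and 32.2 CPM (-0.60, -0.90 to -0.32) and Notch1 at 16.5 and 6.94 CPM (-1.24, -1.91 to -0.66). Tcf4 was at 129.5 and 106 CPM. Cd52, a surface glycoprotein of many blood cells, was the exception, at 96.4 and 169 CPM (0.81, 0.67 to 0.95).

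Megakaryocyte and platelet genes were higher in the KO cells: all 11 of the 12 listed genes that reached 10 CPM were called higher, where 9.43% of all genes were. Their median log2 ratio was 1.21, and their sum was 544 CPM in WT and 1347 CPM in KO. Free RNA held 231 and 223 CPM of them, a background that was alike in both libraries. Outside the class the list median was 1.12 over 9 genes in marker-negative granule-low cells and 0.24 over 3 genes in G2/M granule-high cells. The difference between classes was not tested. Pf4, platelet factor 4, was at 107 CPM (WT) and 392 CPM (KO) (1.88, 1.78 to 1.98), and Cd9, a tetraspanin, at 173 and 299 CPM (0.79, 0.69 to 0.89). The platelet glycoprotein subunit Gp1bb was at 4.89 and 24.4 CPM (2.30, 1.86 to 2.78). Itga2b, the integrin αIIb, was at 88.0 and 243 CPM (1.47, 1.34 to 1.59), with 29.9% and 20.8% of its UMIs in the top 5% of cells.

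Pf4, by contrast, had 78.3% of its WT and 70.8% of its KO UMIs in the top 5% of cells. Summed over the list, a cell of the class had a median of 3.66 UMIs per 10000 in WT and 7.53 in KO. At least 20 per 10000 were found in 15 of 645 WT cells (2.33%, 1.31 to 3.81) and in 27 of 173 KO cells (15.6%, 10.5 to 21.9), with 19 and 17 cells at 15 to under 20 and 3 and 6 at 20 to under 25. After thinning to 8000 UMIs the shares were 2.48% and 16.8%. These cells had medians of 29985 UMIs in WT and 24943 in KO. Mitosis genes summed to 204 and 175 UMIs per 10000 in them. When they were left out, as an alternative added after seeing the data, the list median was 0.90 and Itga2b was still 1.22 on the log2 scale, whereas Pf4 was at 0.11. The cells left out were chosen on this list, Pf4 and Itga2b included, so these values only describe the remaining cells.

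Markers of other cell types that a sort could carry over moved with some of these values. Of 12 mast cell and basophil genes, 9 were higher and 2 lower in KO (median 0.76), but at least 86.3% of the UMIs of the mast cell protease Cpa3 lay in the top 5% of cells of either library, and cells with 20 per 10000 or more were few, 17 in WT and 8 in KO. Cpa3 was at 321 and 652 CPM, Cma1 at 326 and 546 CPM and Ms4a2, a chain of the IgE receptor, at 13.8 and 49.1 CPM. The basophil protease Mcpt8 was at 57.2 and 17.5 CPM (-1.70) in all cells of the class, and higher in KO (0.68) once cells with 20 per 10000 of mast, innate lymphoid or plasma cell genes were left out. Prss34 had 1 UMI in KO against 362 in WT (-5.93, -11.7 to -3.88).

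Plasma cell transcripts marked the WT library. Igkc was at 2200.1 CPM (WT) and 0.833 CPM (KO; log2 ratio -11.20, -13.64 to -9.82), and Ighm at 624 and 11.1 CPM, with 98.3% and 95.6% of their WT UMIs in the top 5% of cells. One WT cell held 20364 Igkc UMIs. Free RNA carried Igkc at 5683 CPM (WT) and 82.6 CPM (KO). Cells with 20 per 10000 or more of B and plasma cell genes were 2 of 645 in WT and 0 of 173 in KO, which allows a share of up to 1.73% by the limit of 3 counts. Without these and the mast and innate lymphoid cells the log2 ratio of Igkc was -6.20.

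Erythroid genes were called higher in KO for 9 of 12 and lower for 1 (median 0.65). Car2, the carbonic anhydrase that is most abundant of them, was lower, at 573 CPM (WT) and 346 CPM (KO) (-0.73, -0.81 to -0.64). The adult globin gene Hbb-bt was at 79.0 and 222 CPM, Hbb-bs at 1.91 and 39.1 CPM and Hba-a1 at 0.572 and 24.2 CPM. One KO cell accounted for 132 of the 141 Hbb-bs UMIs and 78 of the 87 Hba-a1 UMIs there, and the globin genes share near-identical sequence. Per cell, erythroid genes summed to medians of 7.26 UMIs per 10000 in WT and 5.83 in KO, the reverse of the list median. Of the macrophage and dendritic, the stromal and endothelial, and the innate lymphoid and T cell lists, 2, 1 and 1 genes reached 10 CPM. Cd3e, Pax5, Cxcl12, Lepr, Col3a1 and Slc4a1 had no UMI in the cells of the class in either library.

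Other neutrophil granule genes, not used by the rule, gave 4 measured members with a median of 0.49, 3 of them higher. Ms4a3, a gene of granulocyte-monocyte progenitors, was at 27.7 CPM (WT) and 74.96 CPM (KO) (1.43, 1.21 to 1.66), and Cst7 at 34.9 and 54.4 CPM. Calr was at 415 and 422 CPM and Nkg7 at 196 and 248 CPM. Free RNA held Ms4a3 at 397 and 1143 CPM, far above its level in the cells. Myeloid transcription factors and receptors had 5 measured members, 1 of them lower: Spi1, which encodes PU.1, was at 109 and 99.7 CPM, Cebpb at 45.9 and 50.5 CPM, the G-CSF receptor Csf3r at 21.1 and 14.99 CPM and Gfi1 at 12.5 and 9.99 CPM.

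Interferon response genes were lower. Of 25 measured, 16 were called lower in KO and none higher (median -0.65). Rtp4 was at 28.5 CPM (WT) and 4.44 CPM (KO) (-2.66, -3.50 to -1.97), and the ubiquitin-like modifier Isg15 at 23.6 and 4.997 CPM (-2.21, -3.01 to -1.56). The abundant members did not follow: Ifitm1 was at 1285 and 1292 CPM and the class I gene H2-K1 at 1345 and 1252 CPM. The free RNA moved in the same direction, with Rtp4 at 19.2 and 3.11 CPM, and the part of this background was not tested.

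Genes of oxidative phosphorylation encoded in the nucleus leaned upward by a small amount: 60 of 74 lay above 0 with a median of 0.13, and 1 was called. The ATP synthase subunit gene Atp5g2 was at 1195 CPM (WT) and 1375 CPM (KO), Cox8a at 1140.4 and 1259 CPM, Ndufb8 at 304 and 379.5 CPM and Atp5g3 at 303 and 387 CPM (0.35, 0.27 to 0.44). Transcripts of the mitochondrial genome went the other way, with 7 of 13 called lower and none higher (median -0.40). mt-Atp6 was at 6657 and 4840.1 CPM, mt-Co1 at 5144 and 4229 CPM, mt-Co3 at 4069 and 2464 CPM and mt-Nd2 at 904 and 572 CPM. The mt-Co3 level of the free RNA was also lower in KO, at 2524 against 5072 CPM.

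Fatty acid oxidation, which the study followed by metabolic assays, gave 24 measured genes with a median of 0.01, 3 higher and none lower. Etfb, an electron carrier of the pathway, was at 387 CPM (WT) and 538 CPM (KO) (0.48, 0.40 to 0.55), Etfdh had 315 and 94 UMIs (log2 ratio of CPM 0.38) and Acadl was at 132 and 130.5 CPM. Cpt1a, the gate of fatty acid entry, was at 27.1 and 29.98 CPM (0.15, -0.17 to 0.46), and Cpt1b had 13 UMIs in WT and 1 in KO, too few to compare. The fusion genes Mfn1 and Mfn2 were at 11.2 and 11.1 CPM in WT and 10.3 and 12.8 CPM in KO. For LSK cells of the knockout CML mice the study also reported more CPT1A, CPT1B and MFN1 protein and more Cpt1b mRNA. Protein was not measured here, and those cells were not limited to this class. Glycolysis genes had a median of -0.03 over 15 genes, with Ldha at 538 and 718 CPM (0.42, 0.35 to 0.48) and Gapdh at 1295 and 1435 CPM. Ribosome biogenesis genes, led by Npm1 at 2642 and 2513 CPM, had a median of -0.07, with Myc at 98.7 and 80.2 CPM.

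Immediate early genes, which report signaling and handling of cells, were called higher in KO for 6 of 22 and lower for 2 (median 0.12). Jun was at 931 CPM (WT) and 734 CPM (KO) and Jund at 887 and 867 CPM, while Klf2 was at 37.5 and 54.1 CPM and Nr4a1 at 9.08 and 13.9 CPM.

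**Figure D4:**
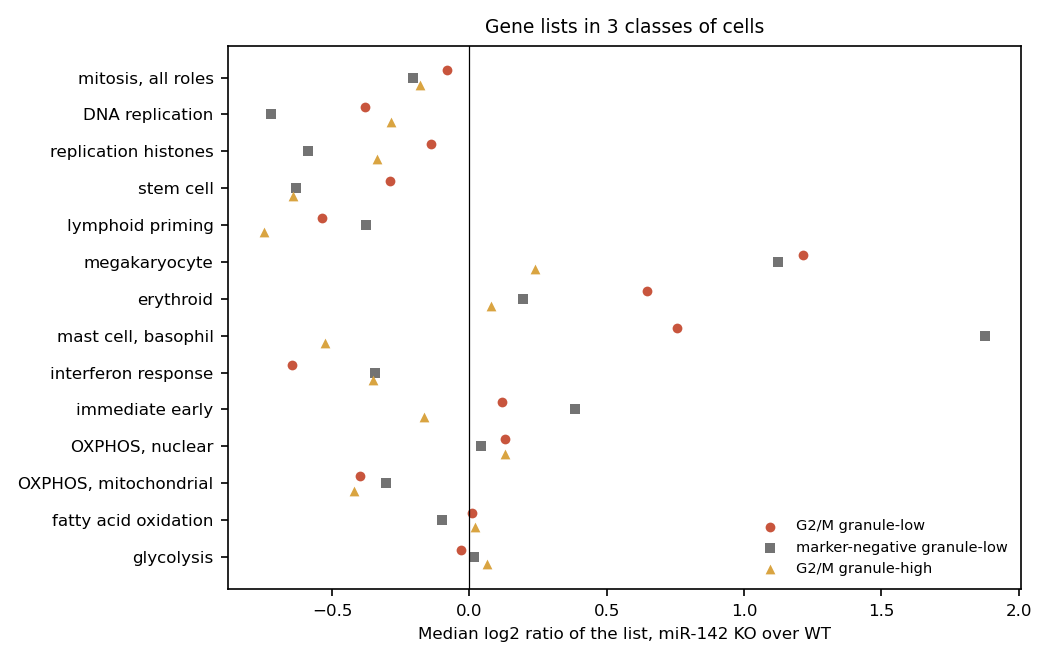
Median log2 ratio (KO over WT, x axis) of 14 gene lists in G2/M granule-low cells (circles), granule-low cells without any of the 6 proliferation markers (squares) and G2/M granule-high cells (triangles). The megakaryocyte list is the highest of the circles at 1.21 and the interferon list the lowest at -0.65.

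By size, 28 of 3097 genes with 50 CPM in either library (0.904%) were 2-fold or more higher in KO and 13 (0.42%) were 2-fold or more lower. Without cells of 20 per 10000 mast, innate lymphoid or plasma cell genes these counts were 26 and 12. Ctsg was among the 28 and Mpo among the 13. Both are granule genes of the selection rule, so their values are a description only. After Tspoap1, the largest ratio was that of Calca, the calcitonin gene, at 1.27 CPM (WT) and 94.4 CPM (KO) (6.11, 5.57 to 6.94), yet 99.1% of its KO UMIs came from the top 5% of cells and 12 KO cells had any. Mt1, a metal-binding stress protein, was at 84.5 and 336 CPM (1.99, 1.88 to 2.11), with free RNA at 349.7 and 989 CPM, above the level in the cells. Gadd45g, a growth arrest gene, was at 16.2 and 55.0 CPM (1.76, 1.49 to 2.04).

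Several further genes with large positive ratios were found in most KO cells of the class. Gna11, a G protein α subunit, was at 19.0 CPM (WT) and 61.1 CPM (KO) (1.68, 1.43 to 1.94), and Rgs10, which turns G protein signals off, at 37.9 and 119.9 CPM (1.66, 1.48 to 1.84). Tsen34, of the tRNA splicing endonuclease, was at 46.9 and 137 CPM (1.54, 1.38 to 1.71), and Cfl2, an actin-severing cofilin, at 41.9 and 119 CPM (1.498, 1.32 to 1.68). The tetraspanin gene Cd63 was at 220.1 and 607 CPM (1.46, 1.39 to 1.54). The share of UMIs in the top 5% of KO cells was between 14.1% for Cfl2 and 23.6% for Cd63 among these 5 genes. It was 69.2% for Hbb-bt, 98.7% for Gzmb and 97.0% for Fcer1a, which were also 2-fold higher.

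Among genes lower in KO, Gm49980, a noncoding gene, was at 67.1 CPM (WT) and 4.997 CPM (KO) (-3.72, -4.51 to -3.08). Gimap6, a GTPase of lymphocytes, was at 69.2 and 23.6 CPM (-1.55, -1.89 to -1.23), and Gng11, a G protein γ subunit, at 82.2 and 29.98 CPM (-1.45, -1.75 to -1.17). They were spread over many WT cells, with 18.8% to 21.3% of their UMIs in the top 5%. Ccl6 and Wfdc17 were carried by few cells: 99.9% of the WT UMIs of the chemokine Ccl6 (56.1 and 1.11 CPM) and 56.2% of those of Wfdc17 (54.9 and 22.2 CPM) lay in the top 5%. Without mast, innate lymphoid and plasma cells, Ccl6 was at -0.97.

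**Figure D5:**
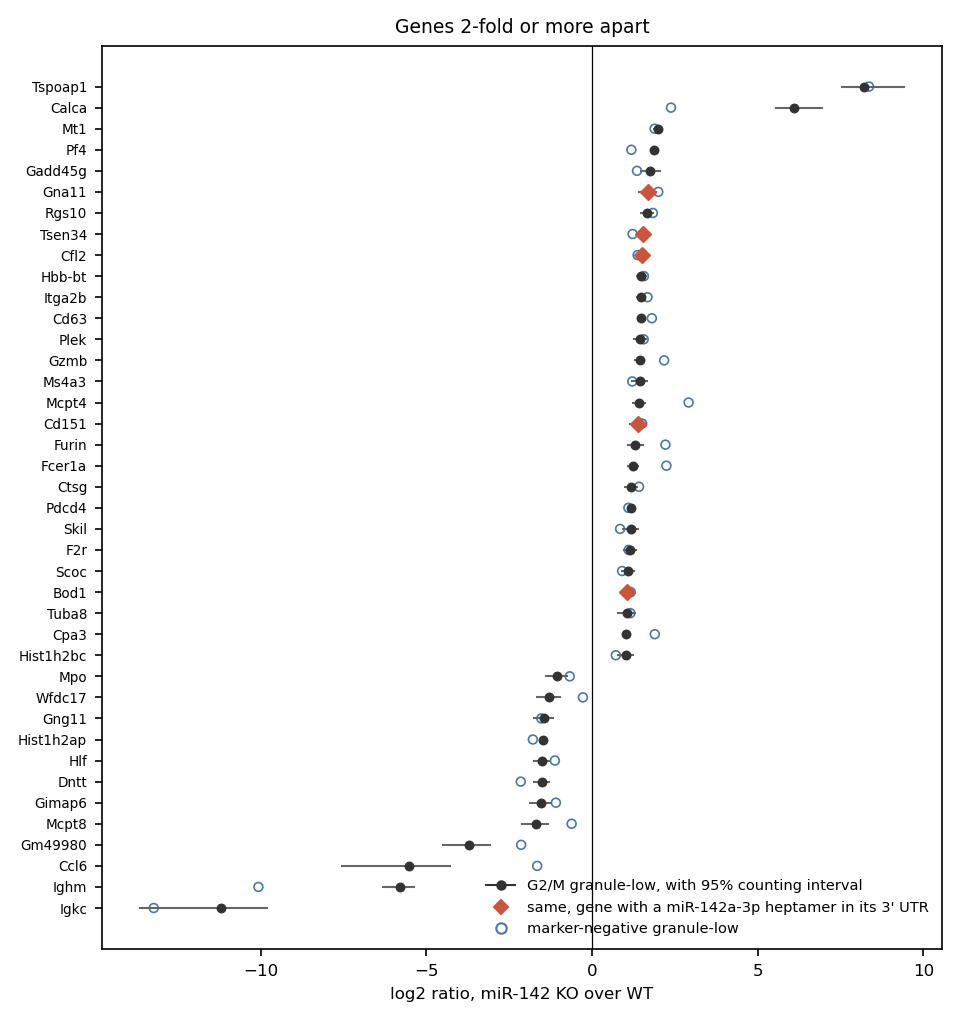
Log2 ratio (KO over WT, x axis) of 40 of the 41 genes 2-fold or more apart in G2/M granule-low cells (filled, with 95% counting intervals), with the same ratio in granule-low cells without proliferation markers (open blue). Diamonds mark the 5 genes with a miR-142a-3p heptamer in the 3′ UTR, Gna11, Tsen34, Cfl2, Cd151 and Bod1, all of them among the 28 higher genes. Ctsg and Mpo, also drawn, are granule genes of the selection rule.

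A set of 5 of the 28 higher genes held a match to the miR-142a-3p seed, the heptamer ACACTAC, in their annotated 3′ UTR (GENCODE M21, GRCm38, searched on the transcript's strand). Windows of 27 bases around 1 such site of each are shown, since these are the higher genes in which the 3p strand had a candidate site, with the heptamer in capitals.
Gna11: gtgccatcccatACACTACagagctac
Tsen34: ccagggttttgaACACTACatcctttc
Cfl2: atgagtcttgaaACACTACagatattt
Cd151: ccccactactgaACACTACtgacttag
Bod1: tgaccctagtagACACTACagaggttt
They lie at chr10:81529469-81529495 (minus strand), chr7:3700816-3700842 (plus), chr12:54860416-54860442 (minus), chr7:141470786-141470812 (plus) and chr11:31665629-31665655 (minus). Gna11 held 3 sites and Cfl2 2.

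The tetraspanin Cd151 was at 22.8 CPM (WT) and 59.4 CPM (KO) (1.38, 1.13 to 1.63). Bod1, which acts at the kinetochore to bring sister chromosomes into biorientation, was at 38.7 and 81.1 CPM (1.07, 0.86 to 1.27) and thus the only gene of chromosome segregation among the 28. It was not in the mitosis lists and was named after its value was seen. In the other classes the 5 genes were higher in KO as well, with Bod1 at 1.17 in marker-negative granule-low cells and 1.22 in G2/M granule-high cells. A 3p heptamer was found in 5.85% of the 3042 genes of 50 CPM with a UTR, in 17.9% of the 28 higher genes and in 0 of the 10 lower genes that had a UTR. A 5p heptamer was found in 14.3% of the 3042 genes. It was present in 2 of the 28 higher genes (7.14%), Plek and Scoc, and in 1 of the 10 lower genes, Gimap6.

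Over all 7781 measured genes with a UTR, the 514 with a 3p heptamer had a median log2 ratio of -0.00, and 14.6% were called higher and 12.1% lower. Of the 7267 without, the median was -0.04, with 8.86% higher and 15.5% lower. For the 5p heptamer, ACTTTAT, the 1253 genes with a site had a median of -0.06 and 8.70% higher, beside -0.03 and 9.34% without. Among the mitosis genes, 6 of 164 held a 3p heptamer, and none of these was called. They included Ckap2l, of the spindle, at 102 and 123 CPM (0.27, 0.11 to 0.42), Anapc1 at 41.9 and 45.0 CPM, Foxm1, and the cohesin subunit Rad21 at 129.0 and 109 CPM (-0.25, -0.41 to -0.09).

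Fewer genes were 2-fold apart in the dividing cells than in the granule-low cells with none of the 6 proliferation genes. In the marker-negative cells, 953 in WT and 499 in KO, 173 of 2958 genes were 2-fold higher and 23 lower, and in G2/M granule-high cells 30 and 17 of 2895. The marker-negative class was shallower, with medians of 12504 and 11090 UMIs. Mast cell genes had a median of 1.88 there against 0.76 in the dividing cells. Innate lymphoid and T cell genes had a median of 2.48 over 6 genes in the marker-negative cells. In the dividing cells 1 such gene was measured, Gata3 (-0.18). The part of such cells in these counts was not tested.

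Single genes differed between the classes as well. Emb, an adhesion glycoprotein, was lower in the dividing KO cells, at 129.5 CPM (WT) and 77.2 CPM (KO) (-0.75), and higher in the marker-negative ones (1.47). S100a6 was at 126 and 131 CPM in the dividing cells (0.06) and had a log2 ratio of 1.81 in the marker-negative ones, and the kinase Stk17b 0.22 and 1.87. In the opposite direction, Xbp1, the transcription factor of the secretory stress response, was higher in the dividing KO cells, at 42.7 and 72.5 CPM (0.76, 0.55 to 0.97), and lower in the marker-negative ones (-0.32), and Hmgb3, a chromatin protein of progenitors, had ratios of 0.21 and -0.49. Tph1, of serotonin synthesis, was at 61.0 and 70.5 CPM, all of it in the top 5% of cells. With 1 library per genotype none of these differences between classes was tested.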

How the data were processed

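LSK cells were profiled on a 10x Genomics 3′ kit (version 3.1), 1 library per genotype. The deposited matrices hold raw UMI counts per gene and barcode, not normalized and not filtered for cells, which the authors made with Cell Ranger (6.1.2 per the labels, 4 per the file headers) on mm10, the assembly also named GRCm38. The matrices held 170881210 UMIs in WT and 187721815 in KO. The cells and the gene lists were chosen with earlier results of these data known.

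Counts were summed over the cells of a class and scaled to CPM (Python 3.11.15, scipy 1.17.1). Log2 ratios used a pseudocount of 0.1 CPM. Lists took genes with a mean of 10 CPM and called them where one library was at least 25% above the other, and single genes needed 50 CPM in either library and were called at 2-fold. Named were the genes of the rule, per list the 2 of highest level and the 2 of largest ratio, the 12 largest ratios each way, the genes that check the labels or that the study followed, and the 6 largest differences each way from the marker-negative granule-low cells. Others are said to be named after their values were seen or serve as members of a counted set. Scrublet (scanpy 1.11.5) called 1 and 0 doublets on its own threshold, which had not worked. An alternative left out the top-scoring 4.29% and 4.36% of cells. Ratios and intervals were checked on simulated counts. 3′ UTRs came from GENCODE M21. 1 gene that the rule names is not reported here.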

Additional observations from a re-analysis of the deposited data

Results flagged for a closer look

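Among the genes named by size, by list, as checks of the labels or as genes the study followed, 6 had ratios of opposite direction, each by at least 25%, in the dividing and the marker-negative granule-low cells. The log2 ratio in the dividing cells was higher by 1.08 for Xbp1, by 5.75 for Hbb-bs and by 3.11 for the class II chain gene Cd74 (0.48 and -2.63). In the dividing KO cells, 1 cell held most Hbb-bs UMIs and 1 cell held 73 of the 89 Cd74 UMIs. In the dividing WT cells, 1 cell held 114 of the 278 Cd74 UMIs. The log2 ratio differed in the other direction, by -2.22 for Emb, -1.34 for Kit (-0.52 and 0.82) and -1.18 for the pan-leukocyte gene Ptprc (-0.56 and 0.63). These differences were not tested, since each genotype had 1 library.

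Below the limit of 8000 UMIs, 19 WT and 7 KO barcodes of 1000 UMIs or more met the rest of the rule, out of 1295 and 1253 barcodes in that range. They were not used.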

How the results depend on the processing

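The lower share of the class in KO kept its direction under every alternative tried, with differences of -12.7 percentage points at 15000 UMIs, -4.19 and -13.4 at granule limits of 5 and 20, -4.12 with all 5 markers and -5.22 with cells thinned to 8000 UMIs. Leaving out cells with 5 per 10000 of other lineages kept 16 WT and 7 KO cells and gave -0.17 points, 251 and 210 genes 2-fold higher and lower, and medians of -0.0423 (mitosis) and -0.26 (replication), values that rest on those few cells. Counts of genes moved with a level of 20 CPM (64 higher, 45 lower) and thinning (27 lower). The mitosis median was -0.11 at a granule limit of 5, -0.0344 with all 5 markers and -0.16 after thinning, and the replication median -0.32 at a limit of 20, -0.23 after thinning and -0.32 for genes of mean 50 CPM. Among other values, the mast cell list reversed to -1.14 with all 5 markers. Mcpt8 reversed to 0.97 there and to 0.68 without mast, innate lymphoid and plasma cells (added after seeing the data). In the 16 and 7 cells, Rgs10 reversed to -0.13 and the stem cell list median turned to 0.63. Pf4 was at -6.32 there, but these cells were kept for low megakaryocyte genes, Pf4 among them. That value therefore cannot be read as a reversal. No paired analysis was possible because each genotype had 1 library. The class rests on 173 KO cells, so genes under about 10 CPM there hold few UMIs.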
